A study of Mus musculus with 13 samples.

Results

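The TGF-beta ligands, receptors and SMADs were described as 10 genes, Tgfb1, Tgfb3, Tgfbr1, Tgfbr2, Smad2, Smad3, Smad4, Smad7, Ski and Skil, chosen by name among 22180 genes with a probe set of their own on the array. Each of the 10 had exactly 1 probe set naming it and no other gene, and all 10 were among the 12710 genes whose values were high enough to test. The cells were donor CD4+ T cells of C57BL/6 mice that had been transferred into B6D2F1 hosts, where they respond to host antigen, a mouse model of graft-versus-host disease. Spleens and lymph nodes were taken at 72 h, and donor cells that had divided at least 2 times, by dilution of the dye CFSE, were sorted. Donor cells were of the same kind in every group, and the mice were 10 to 12 weeks old. The vehicle group (4 arrays) was dosed daily from day 0 to day 2, the TCDD group (4 arrays) once, on day 0, with 15 µg/kg of TCDD (dioxin), and the Cl-BBQ group (5 arrays) daily from day 0 to day 2 with 10 mg/kg. TCDD and Cl-BBQ are ligands of the aryl hydrocarbon receptor (AhR), and since they differ in dose and schedule, a difference between them cannot be told apart from a difference in regimen. The vehicle schedule was that of Cl-BBQ, so the comparison of TCDD with vehicle also holds a difference in schedule. The labels call the arrays biological replicates without saying whether 1 array is 1 host. The unit throughout is log2 expression per probe set after RMA, so that 1 unit is a factor of 2, and levels of different probe sets were not compared.

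TGF-beta is secreted as an inactive complex with its own propeptide, which the protease furin cleaves and integrins help to open. The active ligand binds the type II receptor (Tgfbr2), which recruits and phosphorylates the type I receptor (Tgfbr1). This receptor phosphorylates SMAD2 and SMAD3, which join SMAD4 and enter the nucleus. Smad7 encodes an inhibitor that blocks the receptor and is itself a target of the pathway, and Ski and Skil encode corepressors that bind SMADs. In CD4+ T cells the pathway is known for restraining effector genes and for supporting Foxp3 and the integrin chain CD103. The arrays measured mRNA only, not ligand activation or SMAD phosphorylation.

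The cells had the transcripts of the sorted type. Cd4 averaged 10.52 in vehicle, 10.58 in TCDD and 10.58 in Cl-BBQ arrays, and Cd3e lay between 12.02 and 12.14 in the same groups. Array medians over all probe sets lay between 4.269 and 4.335, and correlations between arrays between 0.9429 and 0.9765, with Cl-BBQ replicate 1 and vehicle replicate 3 forming the lowest pair. The value 4.308, the median over all arrays, was used as the floor below which a level was treated as too low to read.

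With both AhR ligands, 1 of the 10 genes changed, the ligand gene Tgfb3, which rose more than 2-fold from a low vehicle level. The other 9 did not pass in either comparison with vehicle, and none of the 10 passed between Cl-BBQ and TCDD. Among all genes tested, limma with Benjamini-Hochberg adjustment called 6.71% with TCDD and 11.3% with Cl-BBQ, so 1 of 10 is a share near the background in each comparison. Higher calls made up 3.21% and 5.31% of all genes and lower calls 3.5% and 6.03%, while 1 of the 10 was higher and 0 lower. Without overlap between groups, 2 of 10 stood apart in each comparison (Tgfb3 and Smad7 with TCDD, Tgfb3 and Skil with Cl-BBQ), beside 13.6% and 12.9% of all genes (6.31% and 6.08% higher, 7.28% and 6.8% lower). The median log2 difference of the 10 genes was -0.01 with TCDD and -0.03 with Cl-BBQ, beside -0.00089 and -0.01 over all genes tested. At an unadjusted p under 0.05 the counts were 2 of 10 with TCDD and 3 of 10 with Cl-BBQ, beside 18% and 23% of all genes. Both comparisons share the vehicle arrays, so that their values are given side by side and not as 2 independent results.

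**Figure D1:**
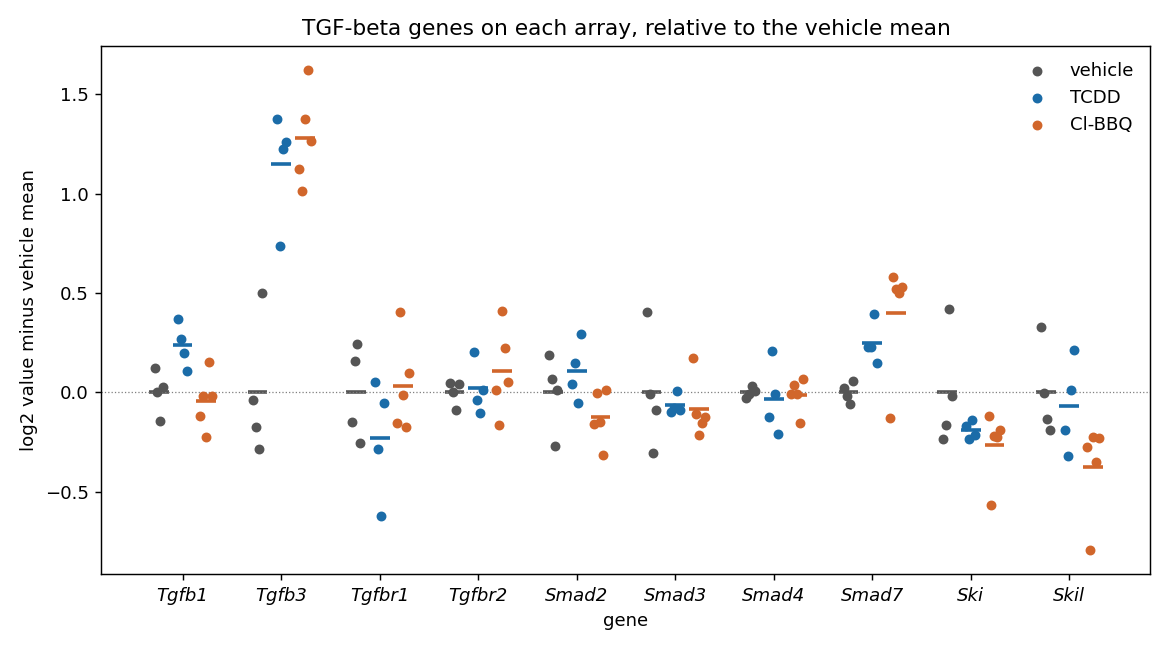
Each point is 1 array, and the vertical axis gives its log2 value minus the mean of the 4 vehicle arrays for the gene named on the horizontal axis, with short bars at the group means. Tgfb3 stands apart, with all 4 TCDD and all 5 Cl-BBQ points above every vehicle point. All 4 TCDD and 4 of 5 Cl-BBQ points of Smad7 lie above every vehicle point, by less than for Tgfb3. All 5 Cl-BBQ points of Skil lie below every vehicle point, and the other genes overlap with vehicle.

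Tgfb3 encodes TGF-beta3, one of the ligands that bind Tgfbr2. Its vehicle values were 4.92, 4.79, 4.68 and 5.46. All were above the floor of 4.308 but not far from it, and their mean lay below the higher floor of 5 used as an alternative. The fold changes given here therefore start from a low level. With TCDD they were 6.34, 5.70, 6.19 and 6.22, and with Cl-BBQ 6.09, 5.98, 6.34, 6.59 and 6.23. The groups did not overlap, with vehicle replicate 4 the highest of its group and TCDD replicate 2 the lowest treated array. The group means were 4.96 ± 0.35 (SD, n = 4) in vehicle, 6.11 ± 0.28 (SD, n = 4) in TCDD and 6.24 ± 0.24 (SD, n = 5) in Cl-BBQ arrays. Against vehicle the log2 change was 1.15 ± 0.18 (SE, 2.22-fold, limma, adjusted p = 0.0011) with TCDD and 1.28 ± 0.17 (2.43-fold, adjusted p = 0.00014) with Cl-BBQ. The 95% intervals of the ratio to vehicle were 1.69 to 2.91 and 1.87 to 3.15. Leaving out any 1 array, the log2 change stayed between 1.05 and 1.32 with TCDD and between 1.19 and 1.45 with Cl-BBQ, and the gene was called each time. The regimens differed by 0.13 ± 0.17 for Tgfb3 (Cl-BBQ minus TCDD, limma, adjusted p = 0.97), with a 95% interval of the ratio from 0.85 to 1.42.

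Tgfb1 encodes TGF-beta1, the form that T cells are best known to make. Its vehicle values were 9.32, 9.20, 9.05 and 9.22, its TCDD values 9.57, 9.46, 9.39 and 9.30, and its Cl-BBQ values 9.07, 9.18, 8.97, 9.35 and 9.18. The 3 groups overlapped, although 3 of 4 TCDD arrays lay above every vehicle array and 4 of 5 Cl-BBQ arrays below every TCDD array. The log2 difference from vehicle was 0.24 ± 0.10 (SE) with TCDD and -0.05 ± 0.10 with Cl-BBQ, and neither passed (limma, adjusted p of 0.22 and 0.84). The direct difference between Cl-BBQ and TCDD was -0.28 ± 0.10, with an unadjusted p of 0.010 and an adjusted p of 0.59 (limma). Tgfb2, the gene of the third ligand, stayed below the floor in all groups, with means between 3.95 and 4.02.

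The receptor genes gave no call. Tgfbr1, the type I receptor kinase, averaged 5.24 ± 0.24 in vehicle, 5.02 ± 0.30 in TCDD and 5.27 ± 0.24 in Cl-BBQ arrays. Its log2 difference from vehicle was -0.23 ± 0.17 (SE) with TCDD and 0.03 ± 0.16 with Cl-BBQ, with overlapping arrays in both (limma, adjusted p of 0.55 and 0.94). Tgfbr2, the ligand-binding receptor, had means of 7.75 ± 0.06, 7.77 ± 0.13 and 7.85 ± 0.22 in the same order. Its 95% interval of the ratio to vehicle ran from 0.85 to 1.21 with TCDD and from 0.91 to 1.27 with Cl-BBQ, so that a change as large as that of Tgfb3 lay outside both.

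The genes of the signal-carrying SMADs gave no call either. Smad2 averaged 7.94 ± 0.19 in vehicle, 8.05 ± 0.15 in TCDD and 7.82 ± 0.13 in Cl-BBQ arrays, and Smad3, whose product is the other receptor-activated SMAD of this branch, 5.60 ± 0.30, 5.54 ± 0.05 and 5.52 ± 0.15. Smad4, the shared partner, had 8.07 ± 0.03, 8.03 ± 0.18 and 8.05 ± 0.09. All 3 overlapped between the groups in every comparison, and their adjusted p with either ligand lay at or above 0.58 (limma). The 95% intervals bound the ratio of Smad4 to vehicle between 0.85 and 1.13 with TCDD and between 0.86 and 1.14 with Cl-BBQ. For Smad3 the bounds were 0.79 and 1.16 with TCDD and 0.78 and 1.14 with Cl-BBQ.

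With Cl-BBQ, the inhibitor gene Smad7 had the lowest adjusted p among the 9 genes not called, while with TCDD that gene was Tgfb1. Its vehicle values were 6.71, 6.67, 6.63 and 6.75, its TCDD values 6.92, 6.92, 7.08 and 6.84, and its Cl-BBQ values 6.56, 7.27, 7.21, 7.19 and 7.22. All 4 TCDD arrays lay above all vehicle arrays, as did 4 of 5 Cl-BBQ arrays, while Cl-BBQ replicate 1 lay below all of them. The log2 difference was 0.25 ± 0.14 (SE) with TCDD and 0.40 ± 0.13 with Cl-BBQ, and neither passed (limma, adjusted p of 0.38 and 0.064). Without Cl-BBQ replicate 1 the Cl-BBQ difference was 0.53 and passed (adjusted p = 0.00042), and it passed as well with arrays weighted by their quality or with a higher floor. Over all alternatives its adjusted p ran from 0.00042 to 0.15.

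The corepressor genes Ski and Skil were not called, with lower means in both treated groups. Ski averaged 6.90 ± 0.29 in vehicle, 6.70 ± 0.04 in TCDD and 6.63 ± 0.18 in Cl-BBQ arrays, and its differences of -0.19 ± 0.14 (SE) and -0.26 ± 0.13 did not pass (limma, adjusted p of 0.53 and 0.24). Skil, which encodes SnoN, read 5.80, 5.47, 5.34 and 5.28 with vehicle, 5.28, 5.15, 5.48 and 5.69 with TCDD and 5.20, 4.68, 5.25, 5.12 and 5.24 with Cl-BBQ. All 5 Cl-BBQ arrays lay below all 4 vehicle arrays, while TCDD overlapped with vehicle. The log2 difference was -0.07 ± 0.16 with TCDD and -0.37 ± 0.15 with Cl-BBQ (limma, adjusted p of 0.88 and 0.14).

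**Figure D2:**
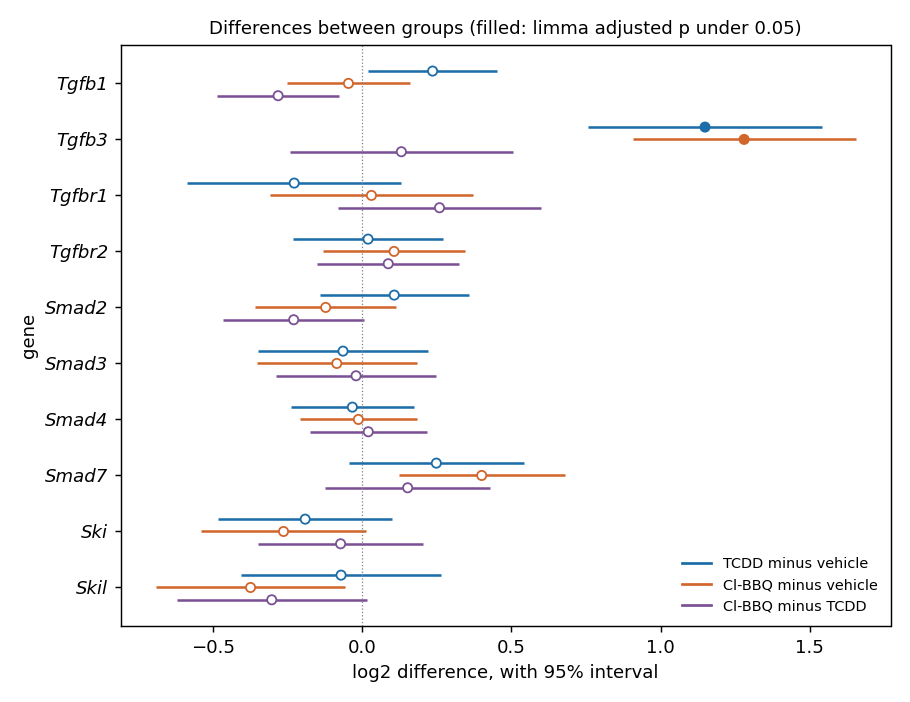
The horizontal axis gives the log2 difference between 2 groups from limma with its 95% interval, for the 10 genes and 3 comparisons, and filled points have an adjusted p under 0.05. Both filled points belong to Tgfb3, at 1.15 and 1.28, and the other 28 points lie between -0.37 and 0.40.

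Between Cl-BBQ and TCDD, 0 of 10 genes passed, beside 0.0236% of all genes tested (3 of 12710), and 1 of 10 had an unadjusted p under 0.05, beside 6.41% (limma). The groups overlapped for all 10, and they did not overlap for 2.11% of all genes (1.03% higher and 1.08% lower). The 95% intervals of the ratio of Cl-BBQ to TCDD reached from 0.65 (Skil) to 1.51 (Tgfbr1), so that these arrays leave room for differences of that size. They do not show that the regimens act alike on these genes.

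The other genes of the pathway were taken from 7 lists written from general knowledge, with 128 genes in all, of which 93 were tested. With TCDD 13 rose and 1 fell, and with Cl-BBQ 20 rose and 3 fell, which is 15.1% and 24.7% of those tested, beside 6.71% and 11.3% of all genes. The median log2 difference was 0.06 and 0.09. Most calls came from the lists of known TGF-beta responses in T cells, which were written with strong changes of several of their genes already known, so their counts are not independent evidence. In the 5 lists of pathway components, 3 of 64 genes were called with TCDD (Furin, Runx3 and Rbl1), which is 4.69%, and 8 of 64 with Cl-BBQ, which is 12.5%, both near the shares of all genes.

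**Figure D3:**
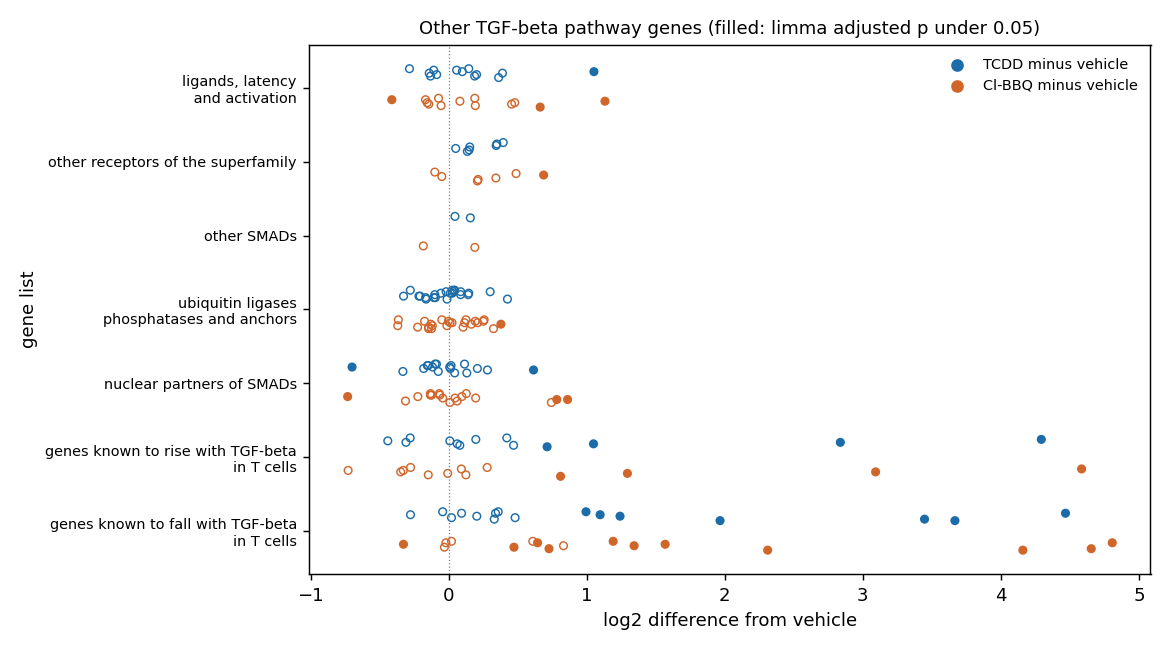
Each point is a tested gene of the list named on the vertical axis, the horizontal axis gives its log2 difference from vehicle with TCDD or Cl-BBQ, and filled points have a limma adjusted p under 0.05. Filled points are sparse in the 5 lists of pathway components and more frequent in the 2 lists of genes known to respond to TGF-beta in T cells, with members of both of these lists to the right.

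Among 13 tested genes of ligands, latency and activation, 1 rose with TCDD, and 2 rose and 1 fell with Cl-BBQ. Furin, which encodes the protease that cleaves the TGF-beta propeptide among many other substrates, was the one called with both. It read 6.11, 6.47, 6.53 and 6.26 with vehicle, 7.35, 7.21, 7.64 and 7.39 with TCDD and 7.43, 7.38, 7.50, 7.26 and 7.80 with Cl-BBQ. The treated arrays all lay above the vehicle arrays. Furin rose by 1.05 ± 0.13 on the log2 scale (SE, 2.07-fold, limma, adjusted p = 0.00015) with TCDD and by 1.13 ± 0.13 (2.19-fold, adjusted p = 2.2e-05) with Cl-BBQ. Itgb3, an integrin chain that pairs with the alpha V chain, had means of 6.42 ± 0.21, 6.79 ± 0.05 and 7.09 ± 0.18 in vehicle, TCDD and Cl-BBQ arrays. It rose by 0.66 ± 0.11 with Cl-BBQ (adjusted p = 0.0011) and did not pass with TCDD (0.36 ± 0.12, adjusted p = 0.10), and the difference between the regimens was 0.30 ± 0.11 (adjusted p = 0.67). Bmp7, a ligand of the BMP branch, fell by 0.41 with Cl-BBQ (adjusted p = 0.048), a call lost in 9 of 13 fits that left out 1 array and in 6 of 10 other settings, with an adjusted p of up to 0.15. Itgav, the alpha V chain, had log2 differences of -0.13 and -0.05, and Nrros, which anchors latent TGF-beta on some leukocytes, 0.19 and 0.19, without passing. The anchor gene Lrrc32 and the integrin gene Itgb8, which serve ligand activation on regulatory T cells, were not above the floor in at least 4 arrays and were not tested. Lrrc32 had means of 4.36, 4.33 and 4.12 with vehicle, TCDD and Cl-BBQ, the first 2 just above the floor. Itgb8 had 4.15, 3.99 and 4.18, all below it.

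**Figure D4:**
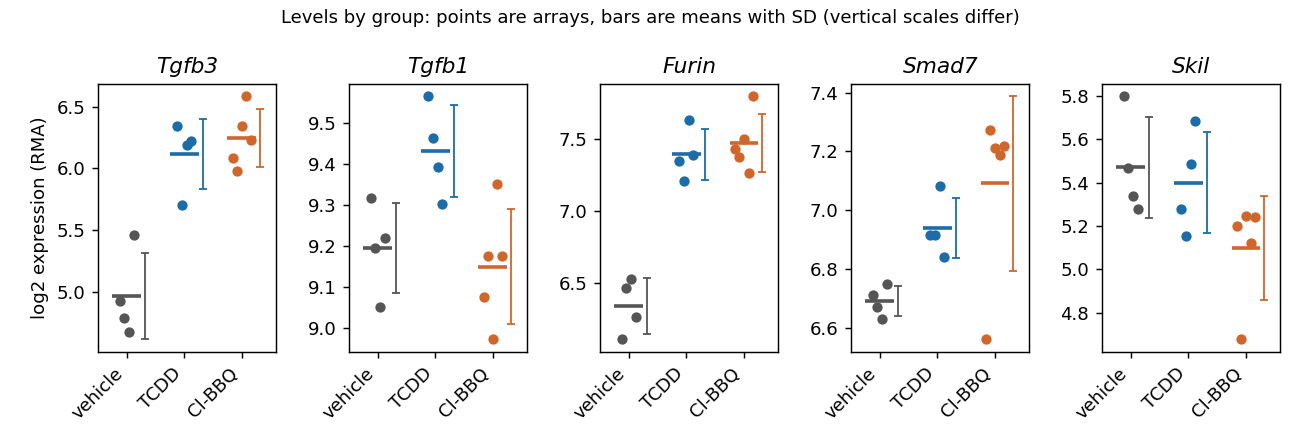
Log2 expression of Tgfb3, Tgfb1, Furin, Smad7 and Skil is plotted on vertical axes that differ between genes, with a point for each array, a bar for the group mean and a line for its SD. Tgfb3 and Furin are higher on every treated array than on every vehicle array, Tgfb1 overlaps, 1 Cl-BBQ array of Smad7 lies at 6.56, apart from the 4 others, and the lowest Cl-BBQ array of Skil lies at 4.68.

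Promoter sequence is shown for Tgfb1, a ligand gene that did not pass, and for Furin, the called gene whose product cleaves the ligand propeptide, because both compounds are AhR ligands and the AhR binding motif has the core GCGTG. The sequences are the 250 bases before the annotated start in RefSeq (GRCm38.p6), 5′ to 3′ on the strand of the gene, with matches to the core on either strand (GCGTG or CACGC) in capitals. Tgfb1 is on the plus strand at chr7:25686752-25687001, and the 2 annotated starts of Furin are on the minus strand at chr7:80405437-80405686 and chr7:80402813-80403062.
Tgfb1: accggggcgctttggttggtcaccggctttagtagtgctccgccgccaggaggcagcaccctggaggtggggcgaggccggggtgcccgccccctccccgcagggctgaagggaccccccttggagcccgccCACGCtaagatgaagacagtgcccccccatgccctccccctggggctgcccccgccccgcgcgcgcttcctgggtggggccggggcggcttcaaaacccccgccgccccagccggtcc
Furin, first start: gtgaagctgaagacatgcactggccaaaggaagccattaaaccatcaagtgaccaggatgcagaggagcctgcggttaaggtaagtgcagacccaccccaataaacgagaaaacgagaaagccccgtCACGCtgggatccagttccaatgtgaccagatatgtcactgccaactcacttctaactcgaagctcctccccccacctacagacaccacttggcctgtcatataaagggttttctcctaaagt
Furin, second start: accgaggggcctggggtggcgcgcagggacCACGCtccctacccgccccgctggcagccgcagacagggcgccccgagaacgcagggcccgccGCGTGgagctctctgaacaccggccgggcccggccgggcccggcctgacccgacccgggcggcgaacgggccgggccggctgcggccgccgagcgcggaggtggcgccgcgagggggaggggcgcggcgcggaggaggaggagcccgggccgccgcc
Tgfb1 held 1 match, and the 2 starts of Furin held 1 and 2. Of the 10 genes, 5 were matched in the table (Tgfb1, Tgfbr1, Tgfbr2, Smad3 and Ski), with 6 windows, and Tgfb3, Smad2, Smad4, Smad7 and Skil had no entry. The core was in 5 of these 6 windows and in 28.2% of 32851 windows of the same length over all genes. The 5-base SMAD motif CAGAC (or GTCTG on the other strand), which can share an end base with the AhR core, was in 2 of the 6 windows, in both starts of Furin and in 42.2% of all windows. Among the named genes of the other pathway lists, all of them called, 14 of 18 were matched and 7 of 20 windows held the AhR core. Besides Furin, it was in the windows of Il12rb2 (4 matches), Smurf1 (4) and Fos (1). It was also at 1 start each of Bcl2l11 (3 matches) and Cdkn1a (1). The windows of Runx3, Rbl1, Gpr15, Ctla4, Gzma, Gzmb, Il18r1 and Prf1 held none. None of the 5 matched genes of the 10 was called with either ligand, and a match is a description of letters, not a site of binding.

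Of 7 tested genes of other receptors, none passed with TCDD and Acvrl1 rose with Cl-BBQ. This type I receptor of the superfamily, also called ALK1, averaged 4.85 ± 0.31 in vehicle, 5.20 ± 0.25 in TCDD and 5.54 ± 0.29 in Cl-BBQ arrays. The log2 difference with Cl-BBQ was 0.69 ± 0.18 (SE, limma, adjusted p = 0.018), with overlapping arrays, and the call was lost without vehicle replicate 1 or 2 (adjusted p of up to 0.068). With TCDD it was 0.34 ± 0.18 (adjusted p = 0.36). Tgfbr3, the co-receptor betaglycan, differed by 0.14 and 0.21, and Bambi, a decoy receptor, by 0.15 and -0.05. Of the other SMADs, Smad1 and Smad5 of the BMP branch were tested and did not pass, while Smad6 and Smad9 stayed below the floor.

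Among 24 tested ubiquitin ligases, phosphatases and anchors, none passed with TCDD and 1 rose with Cl-BBQ. That gene was Smurf1, a ligase that removes receptors together with SMAD7, at 0.38 ± 0.11 (SE, limma, adjusted p = 0.043), and the call was lost in 9 of 13 fits that left out 1 array and in 5 of 10 other settings, with an adjusted p of up to 0.12. Pmepa1, an inhibitor that is itself a common target of TGF-beta, had log2 differences of 0.04 with TCDD and 0.26 with Cl-BBQ, without passing. Among 18 tested nuclear partners of SMADs, 1 rose and 1 fell with TCDD, and 2 rose and 1 fell with Cl-BBQ. Runx3, a transcription factor of cytotoxic and CD103-bearing T cells that binds SMADs, went from 7.77 ± 0.03 in vehicle to 8.39 ± 0.08 in TCDD and 8.63 ± 0.10 in Cl-BBQ arrays. It rose by 0.62 ± 0.08 (adjusted p = 0.00027) and 0.86 ± 0.08 (adjusted p = 3.5e-06), with all treated arrays above all vehicle arrays, and its difference between the regimens was 0.25 ± 0.08 (adjusted p = 0.57). Rbl1, which encodes the pocket protein p107, fell by 0.70 and 0.73 (adjusted p of 0.0055 and 0.0015). Fos rose by 0.78 with Cl-BBQ (adjusted p = 0.024), a call lost in 4 of 13 fits that left out 1 array and in 3 of 10 other settings, with an adjusted p of up to 0.087.

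Of the genes known to rise with TGF-beta in T cells, all that passed rose, but most did not pass. Of 13 tested, 4 rose with TCDD, the same number with Cl-BBQ, and none fell, beside 3.21% and 5.31% of all genes tested that rose. The list was written with strong changes of several of its genes already known, so its counts describe the list and are not independent evidence. The genes that rose were Itgae, which encodes CD103 (log2 change 2.84 ± 0.18 with TCDD and 3.09 ± 0.17 with Cl-BBQ), Gpr15, which encodes a homing receptor, the inhibitory receptor gene Ctla4 (0.71 ± 0.10 and 0.81 ± 0.09) and Cdkn1a, a cell cycle inhibitor that other signals induce too (1.05 ± 0.22 and 1.30 ± 0.20). Over the 13 tested, 10 differences were positive with TCDD and 7 with Cl-BBQ, with medians of 0.20 and 0.09. Foxp3 had -0.28 and -0.28, Nt5e, encoding CD73, 0.06 and -0.01, and Ccr8 -0.44 and -0.73, without passing. Rgs16 averaged 5.96, 6.43 and 5.81 and Ahr 5.97, 6.39 and 6.25 with vehicle, TCDD and Cl-BBQ, and neither passed. The vehicle mean of Gpr15, 3.97, lay below the floor, so that its rise, to 8.26 ± 0.26 with TCDD and 8.55 ± 0.29 with Cl-BBQ, is given by levels only. Gpr15 was among the genes tested through its treated arrays. The Cl-BBQ mean of Ccr8, 4.24, was below the floor too.

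Of the genes known to fall with TGF-beta in T cells, most that passed rose. Of 16 tested, 7 rose and none fell with TCDD, and 10 rose and 1 fell with Cl-BBQ, with a median log2 difference of 0.42 and 0.78. Among all genes tested, 3.21% and 5.31% rose and 3.5% and 6.03% fell. This list too was written with strong changes of several of its genes already known, so its counts describe the list and are not independent evidence. The largest were Il12rb2 (4.47 ± 0.17 and 4.81 ± 0.16), Gzmb (3.67 ± 0.17 and 4.16 ± 0.16), Gzma (3.45 ± 0.18 and 4.66 ± 0.17) and Prf1 (1.97 ± 0.26 and 2.31 ± 0.25), genes of interleukin 12 sensing and of cytotoxic granules, and Il18r1 (1.10 ± 0.13 and 1.57 ± 0.13) and the death ligand gene Fasl (1.24 ± 0.22 and 1.34 ± 0.21) rose less. The gene that fell with Cl-BBQ was Cdk4, a cell cycle kinase, by 0.33 ± 0.09 (adjusted p = 0.026). Bcl2l11, which encodes BIM, rose by 1.00 ± 0.16 and 1.19 ± 0.15, but is a doubtful entry, since TGF-beta is known to raise it in other cell types. Gzma was the 1 pathway gene called between the regimens (1.21 ± 0.17, limma, adjusted p = 0.039), a call lost in 8 of 13 fits that left out 1 array and in 4 of 10 other settings.

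Over the 13 arrays, the 5 genes most like Tgfb3 by Pearson's correlation were Slc17a9, a nucleotide transporter (r = 0.962), Smap2, a regulator of vesicle traffic (0.959), B4galnt4, a glycosyltransferase (0.954), Foxo1, a transcription factor of quiescent T cells (0.949), and Abi3, an adaptor of the actin cytoskeleton (0.945). After removal of group means the correlations were 0.747, 0.733, 0.690, 0.759 and 0.645. The first set of values describes 13 arrays that share the group differences. The 5 genes were chosen on these same arrays for the highest correlation, so both sets tend to be raised by that choice. The log2 difference of Slc17a9 was 1.19 with TCDD and 1.31 with Cl-BBQ, and that of B4galnt4 2.04 and 2.44, and both genes passed with each ligand. Foxo1 differed by 0.30 with TCDD, without passing (limma, adjusted p = 0.061), and rose by 0.36 with Cl-BBQ (adjusted p = 0.012).

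Since Tgfb3 and TGF-beta receptors are also expressed by other cells, markers of cells that a CD4 sort could carry were read on the same arrays. In bulk samples, fewer cells of a type and less RNA per cell cannot be told apart. Of 9 stromal markers 8 were measured, with array means between 4.75 and 5.01 with vehicle, 4.80 and 4.89 with TCDD and 4.54 and 4.99 with Cl-BBQ, and of the 6 tested none rose and 1, Pecam1, fell with TCDD. Pecam1 averaged 8.69, 8.26 and 8.33 with vehicle, TCDD and Cl-BBQ, far above the other stromal markers, and raises these means. The fibroblast genes Col1a2 (4.01 in vehicle, 4.04 in TCDD and 4.11 in Cl-BBQ arrays) and Pdgfra (3.93, 3.70 and 3.77) were below the floor in all groups, and Col1a1 stood just above it (4.49, 4.54 and 4.46). The platelet gene Pf4, whose cells carry much TGF-beta1, was at 2.40, 2.33 and 2.43, and the 4 measured platelet markers had array means between 3.42 and 3.87. Of 5 tested macrophage markers 1, Cd68, rose with both ligands, and the 8 measured had array means between 4.32 and 4.40 with vehicle, 4.21 and 4.44 with TCDD and 4.18 and 4.46 with Cl-BBQ. The 7 measured B cell markers had array means between 4.26 and 4.50 with vehicle, 3.99 and 4.27 with TCDD and 4.10 and 4.30 with Cl-BBQ, and of the 5 tested Cd22 alone fell, from 6.17 with vehicle to means below the floor with both ligands, so that the size of its fall cannot be read. The 6 regulatory T cell markers had array means between 6.63 and 6.83 with vehicle, 6.11 and 6.41 with TCDD and 6.09 and 6.33 with Cl-BBQ. Of the 5 tested, Il2ra rose (0.66 and 0.97) and Nrp1 fell (by 2.87 and 2.87) with both ligands, and Ikzf2 fell by 0.56 with Cl-BBQ. Nrp1, which averaged 7.78, 4.91 and 4.90 with vehicle, TCDD and Cl-BBQ, moved the means of the list most, so that they do not describe its other genes. The CD8 genes Cd8a and Cd8b1 did not pass. With vehicle, TCDD and Cl-BBQ, Cd8a averaged 4.17, 4.75 and 4.77, the first below the floor, and Cd8b1 6.74, 6.48 and 6.88, well above it. All 5 Cl-BBQ arrays of Cd8a lay above all vehicle arrays (limma, adjusted p = 0.15). Array means of both genes lay between 5.28 and 5.55 with vehicle, 5.34 and 6.01 with TCDD and 5.66 and 6.12 with Cl-BBQ. Of 4 tested natural killer cell markers Gzma alone rose. The part of these marker differences in the rise of Tgfb3 was not tested.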

How the data were processed

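Expression was measured on 13 one-colour arrays. Per the submitters' processing notes, the authors made the deposited log2 values with RMA (background correction, quantile normalization, probe set summary). The RMA software version was not given in these sources. Quantile normalization hides any change common to most transcripts. The number of arrays limits the precision.

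Of 41345 probe sets, 23521 had 1 symbol, 1814 several and 16010 were unnamed here. Symbols were updated by gene identifier to GRCm38.p6. The probe set with the highest mean was kept for each of 22180 genes, and the 12710 genes above 4.308 in at least 4 arrays were tested.

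All arrays entered 1 fit of 3 group means in limma 3.58.1 (R 4.3.3), with 10 residual and 4.22 prior degrees of freedom, two-sided, with Benjamini-Hochberg adjustment within each contrast and calls at 0.05. SE is the moderated standard error, and intervals are unadjusted 95% intervals. P-values measure only the spread between these samples. The pipeline was tested on simulated data. The 10 genes, the lists and the alternatives were chosen with earlier results of these data known. Named were all 10 genes, up to 6 genes per pathway list called with either ligand (by smallest p), and the 5 genes most correlated with the called member of largest change. Other pathway and marker genes were named after their values had been seen. Alternatives covered the floor, scaling, variance prior, array weights, samples fitted, probe set choice, a replicate block and leaving out each array.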

Additional observations from a re-analysis of the deposited data

Results flagged for a closer look

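In 4 of 30 gene and group combinations of the 10 genes, 1 array lay apart from the rest of its group by Dixon's test, which chance alone does in about 1 in 20 groups, and all 4 were Cl-BBQ arrays. Smad7 was at 6.56 on Cl-BBQ replicate 1, with the nearest array at 7.19, and Smad3 on the same array at 5.77, with the nearest at 5.49. Cl-BBQ replicate 2 had the lowest Ski, at 6.33 beside a nearest value of 6.67, and the lowest Skil, at 4.68 beside 5.12. Cl-BBQ replicate 1 correlated with the other arrays at 0.943 to 0.954 over all probe sets. Tgfb3 was not among these cases.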

How the results depend on the processing

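Tgfb3 was called with both ligands, and no other of the 10 genes with TCDD, in each of 10 alternative settings and 13 fits without 1 array. The count called with Cl-BBQ was 1, but 2 with the higher floor of 5 and with array weights, and 1 to 2 over fits without 1 array, where it was 2 without Cl-BBQ replicate 1, and the added gene was Smad7. Among the values of single genes, 668 kept their direction and their side of the threshold, 3 gained a call and 19 changed sign, none of them called. Smad4 between the regimens was -0.00033 with the replicate block. The other sign changes came without 1 array, over which the log2 difference from vehicle with TCDD ranged from -0.042 to 0.060 for Tgfbr2, -0.17 to 0.070 for Smad3, -0.11 to 0.026 for Smad4 and -0.17 to 0.039 for Skil. With Cl-BBQ the ranges were -0.062 to 0.11 for Tgfbr1, -0.19 to 0.049 for Smad3 and -0.033 to 0.022 for Smad4, and between the regimens -0.0067 to 0.21 for Tgfb3, -0.085 to 0.011 for Smad3, -0.039 to 0.10 for Smad4 and -0.11 to 0.0036 for Ski. Between the regimens, the 3 genes called overall became 0 with no floor, with only the 2 groups compared, with all probe sets fitted one by one and with the replicate block, 6 with the higher floor and with trend and robust priors, 5 with quantile normalization or the mean of probe sets, 7 with array weights, and 0 to 5 without 1 array. The 1 pathway gene called there, Gzma, became 0 in the same 4 settings and 0 to 1 without 1 array. The cause was not tested. Replicate numbers did not pair the arrays (0 of 12 same-number pairs correlated over 0.1, and 2 of 13 arrays correlated best with their own number). The correlations behind these counts ran from -0.0594 to 0.0751 for the same number. They were not the correlations between array levels given earlier, which were all high. With the replicate block the counts over all genes were 714 with TCDD and 1114 with Cl-BBQ, instead of 853 and 1441, and 1 of the 10 genes was called with each. Single probe sets stand for all 10 genes, so that no second probe set could be compared. The settings of the floor and of the probe set choice therefore left the log2 differences of the 10 genes as they were. They could alter only the variance prior and the adjustment. Tgfb3 passed the higher floor of 5 through its treated arrays, since its vehicle mean was 4.96.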
